A study of Mus musculus with 24 samples.

Results

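Immunoglobulin and B cell genes were examined in the hippocampus of aged mice kept in standard or enriched housing. The 9 genes were chosen by symbol: the heavy chain constant genes Ighm, Ighd, Igha and Ighg2b, the kappa light chain constant gene Igkc, the joining chain gene Jchain, the B cell receptor signalling genes Cd79a and Cd79b, and Ms4a1, which encodes CD20. All 9 were listed in each library, among 49568 gene symbols in all. They were chosen with measured values in view, because Ighm was higher in enriched mice of both genotypes. The housing values of Ighm are therefore a description and support nothing, also where counts of called genes include it, and the question was whether the other 8 genes followed it.

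An antibody is built from heavy and light chains, each made of a variable end, joined from V, D and J segments, and a constant end that sets the class. IgM and IgD are the first classes a B cell makes, and switched cells go on to IgG or IgA. On the B cell surface the antibody needs CD79A and CD79B to signal. Plasma cells secrete it in quantity, with the joining chain linking units of IgM and IgA. The healthy brain tissue itself holds few B cells, while blood, the meninges and the choroid plexus hold more.

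The samples were individual hippocampi of experimentally naive male mice, aged 21 to 23 months, on a C57-Bl/6J background. Each of the 24 mice gave 1 library of polyadenylated RNA, 6 in each of 4 groups. WTSH were wild-type mice in standard housing, and WTEE were wild-type mice in enriched housing from 18 months of age. KDSH and KDEE were the same 2 housing conditions in homozygous MSK1 kinase-dead mice. These carry, in every cell, a knock-in point mutation in the endogenous gene of the kinase MSK1 (Rps6ka5) that inactivates its N-terminal kinase domain. The 2 genotypes were kept as separate lines, and which mice shared a cage was not in the labels. The test used 21 libraries (4 WTSH, 6 WTEE, 5 KDSH and 6 KDEE), because 3 were set aside by the study for ribosomal RNA carry-over and a low correlation with their group (sample 6 of KDSH and samples 4 and 7 of WTSH).

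Counts on genes ran from 27410239 to 71907130 in the 21 kept libraries, and lines that name no gene took 13.1% to 21.3% of all counts there against 25.8% to 50.2% in the 3 left out. The 5 libraries WTSH sample 19, WTEE samples 10 and 13 and KDEE samples 12 and 14 stood apart in choroid plexus genes, with a summed level of 224.7 to 804.3 CPM (counts scaled to the library size) against 20.9 to 34.9 CPM in the other 16 kept libraries. WTEE sample 10 was also the lowest in hippocampal neuron genes, with a summed 3003 CPM against 4782 to 6157 CPM in the other kept libraries. No label links a mouse to one of another group, and the p-values measure the spread between these mice. Per the study's methods, cages were allocated to enrichment, and an enriched cage held more mice than a standard one. Cage and housing therefore cannot be told apart. The p-values for housing treat mice that may have shared a cage as independent. In bulk tissue, fewer cells of a type and less RNA per cell cannot be told apart.

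Sequences of the constant genes stand first, because the measurements below turn on Ighm and Igkc and on how far they part. Bases are from GENCODE M21 transcripts on GRCm38. The first 150 bases of the Ighm constant region (chr12:113422581-113422730, minus strand, first exon) and of the Igkc constant exon (chr6:70726435-70726584, plus strand) read as follows.
Ighm: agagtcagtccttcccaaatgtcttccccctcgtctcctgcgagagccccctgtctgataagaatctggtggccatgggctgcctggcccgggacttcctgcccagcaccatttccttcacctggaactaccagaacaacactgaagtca
Igkc: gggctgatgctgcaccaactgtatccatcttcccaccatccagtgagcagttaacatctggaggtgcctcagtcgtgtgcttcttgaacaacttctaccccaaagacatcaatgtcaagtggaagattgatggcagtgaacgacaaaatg

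The Ighm count sums 2 ends of the heavy chain, which cannot be separated in these gene totals. The coding bases found only in the shorter, secreted form (chr12:113420870-113420928, minus strand) and the membrane exon found only in the longer form (chr12:113418953-113419068, minus strand) are shown because either could carry the reads.
Secreted tail: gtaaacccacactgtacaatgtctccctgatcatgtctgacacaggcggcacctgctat
Membrane exon: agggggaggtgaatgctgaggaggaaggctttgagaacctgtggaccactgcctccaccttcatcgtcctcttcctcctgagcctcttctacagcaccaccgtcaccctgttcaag

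Ighm, the mu heavy chain of IgM, spans chr12:113418558-113422730 on the minus strand and was by far the most abundant of the 9 per exon length, at a mean of 13.2 CPM per kilobase over the 21 kept libraries. Igkc followed at 1.41 CPM per kilobase, Ighd at 0.250, Jchain at 0.239, Cd79b at 0.197, Cd79a at 0.196, Igha at 0.0762, Ighg2b at 0.0476 and Ms4a1 at 0.00719. The lowest Ighm library, at 8.69 CPM per kilobase, lay above the highest Igkc library, at 3.51. The ranges of Ighd, Jchain, Cd79a and Cd79b overlapped one another across libraries, from 0.0722 to 0.647 CPM per kilobase in all.

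**Figure D1:**
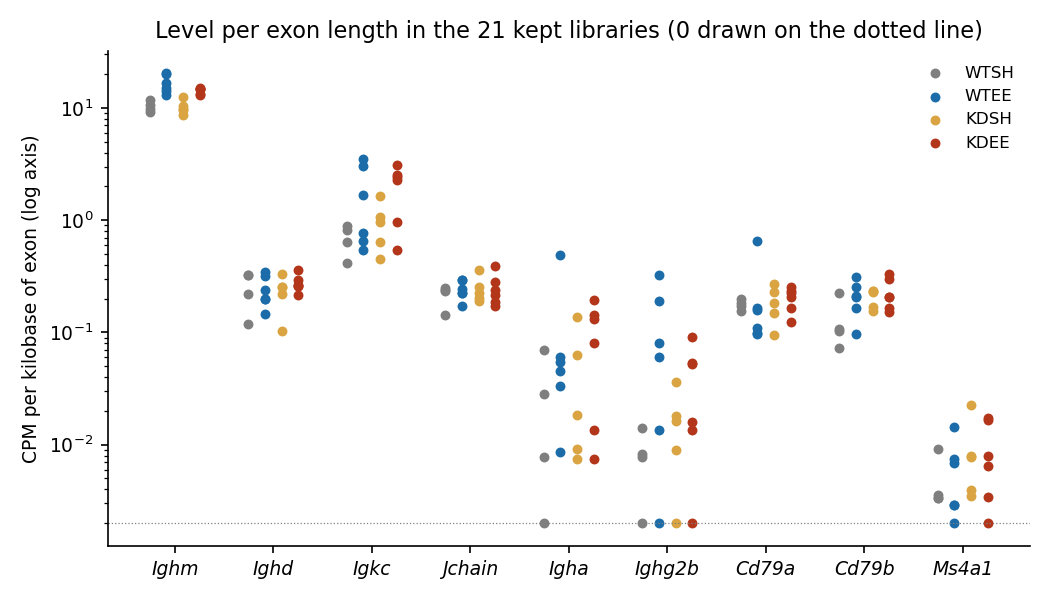
Level of each of the 9 genes per exon length, in CPM per kilobase on a log axis, with 1 point for each of the 21 kept libraries coloured by group and values of 0 drawn on the dotted line. Ighm lies between 8.69 and 20.3, above every point of the other genes, and Ms4a1 lies at the bottom with a highest value of 0.0224.

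In WTSH mice, normalized counts of Ighm (counts scaled by TMM size factors) were 970.0 in sample 2, 841.2 in sample 5, 880.1 in sample 19 and 1071 in sample 23. WTEE mice ran from 1186 to 1843 with a median of 1446. KDSH mice had 873.4, 942.1, 787.3, 1125 and 889.0 in samples 1, 3, 8, 18 and 24, and KDEE mice ran from 1178 to 1358 with a median of 1330. Among the kept libraries, every enriched library lay above every standard library of its own genotype. The left-out WTSH sample 7, at 1204 normalized counts, lay above WTEE sample 13. Means were 940.6 ± 102.3 (SD, n = 4) in WTSH, 1502 ± 279.7 (n = 6) in WTEE, 923.4 ± 125.7 (n = 5) in KDSH and 1290 ± 79.7 (n = 6) in KDEE. The log2 fold change was 0.68 (SE 0.12) in wild-type and 0.48 (SE 0.11) in kinase-dead mice, or 0.58 (SE 0.08) averaged over the genotypes. The difference between those 2 changes was 0.19 (SE 0.16) on the log2 scale. These values were used to choose the gene. Across the 20187 genes tested, non-overlap with enriched mice higher was seen in 0.481% in the wild type, 0.907% in kinase-dead mice and 0.0149% (3 genes) in both.

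The genotype contrasts were not used in the choice. In standard housing, Ighm differed by -0.03 on the log2 scale (KDSH minus WTSH, SE 0.12, edgeR adjusted p = 1). In enriched housing, it was 0.22 higher in WTEE than in KDEE mice (SE 0.10), with an unadjusted p of 0.0463 and an adjusted p of 0.957. The 2 enriched groups overlapped, since WTEE samples 11 and 13, at 1269 and 1186 normalized counts, lay within the KDEE range of 1178 to 1358. Ighm lies 12.7 Mb from Rps6ka5 on chromosome 12, where Ighd, Igha and Ighg2b also lie, so the mutant allele and any linked DNA of the line cannot be told apart in these contrasts. Rps6ka5 itself, whose point mutation does not remove the transcript, averaged 1119 ± 100.7 normalized counts in WTSH, 1043 ± 189.9 in WTEE, 1158 ± 21.98 in KDSH and 1140 ± 27.41 in KDEE.

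**Figure D2:**
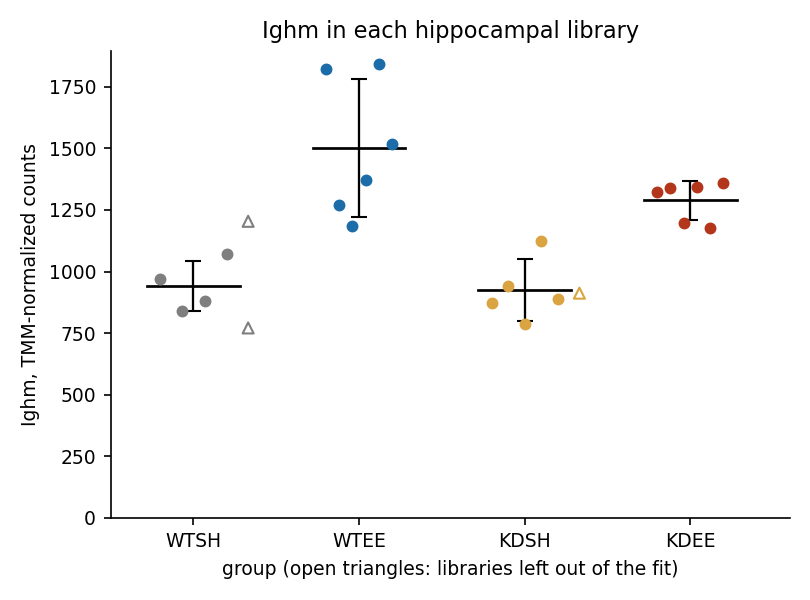
TMM-normalized counts of Ighm by group, with a point for each kept library, a horizontal line at the mean, bars of 1 SD, and open triangles for the 3 libraries left out of the fit, which were scaled together with all 24. WTEE (1186 to 1843) and KDEE (1178 to 1358) lie above the kept standard-housing libraries of their genotype. The left-out WTSH sample 7 (1204) lies above the other WTSH libraries and above WTEE sample 13 (1186).

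Ighd, the delta heavy chain that naive B cells splice from the same transcript as Ighm (chr12:113406604-113416324, minus strand), overlapped between the housing groups. It measured 29.72, 10.92, 29.85 and 20.03 normalized counts in WTSH samples 2, 5, 19 and 23, and 13.20 to 31.76 with a median of 19.93 in WTEE mice. In KDSH mice it measured 22.98, 9.304, 22.97, 30.46 and 19.96 in samples 1, 3, 8, 18 and 24, against 19.70 to 32.94 with a median of 23.98 in KDEE mice. The overlap covered most of the range in both genotypes. The log2 fold change averaged over genotypes was 0.10 (95% interval -0.33 to 0.53, adjusted p = 0.801). Counts of Ighd were 0.869% to 3.39% of those of Ighm across the 21 libraries.

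Igkc, the constant end of most mouse light chains (chr6:70726435-70726966, plus strand), was higher in some enriched mice and not in others. WTSH samples 2, 5, 19 and 23 had 10.61, 22.84, 16.28 and 21.03 normalized counts. WTEE libraries split into 3 at 42.91 to 89.71 (samples 10, 11 and 13) and 3 at 13.93 to 19.67 (samples 16, 17 and 21), inside the WTSH range. In KDSH samples 1, 3, 8, 18 and 24 the values were 11.49, 16.28, 41.77, 24.75 and 27.01. Of the 6 KDEE libraries, 4 lay above the highest KDSH value, at 58.45 to 78.81, and samples 9 and 22 had 24.80 and 13.78. The log2 fold change was 1.298 (SE 0.54, unadjusted p = 0.0259, adjusted p = 0.651) in the wild type and 1.06 (SE 0.49, unadjusted p = 0.0418, adjusted p = 0.419) in kinase-dead mice. Averaged over the genotypes it was 1.18 (SE 0.37, 95% interval 0.42 to 1.94), with an unadjusted p of 0.00399 that did not pass the adjustment over all genes (adjusted p = 0.196).

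Choroid plexus genes were high in part of these libraries. Of the 7 enriched libraries with Igkc at 42.91 normalized counts or more, 4 were among the 5 rich in choroid plexus genes. Without those 5 libraries the averaged log2 fold change of Igkc was 0.55 (unadjusted p = 0.118, adjusted p = 0.452) and that of Ighm was 0.57. Leaving out WTEE sample 13 alone brought the Igkc change in the wild type to 0.94. With all 24 libraries, which bring back WTSH sample 7 with its 172.4 normalized counts of Igkc, the wild-type change was 0.19 (unadjusted p = 0.764) and the averaged one 0.65 (unadjusted p = 0.144). Summed choroid plexus genes ran from 21.99 to 366.3 CPM in WTSH and 26.3 to 509.3 in WTEE. They ran from 20.9 to 34.9 CPM in KDSH and 27.3 to 804.3 in KDEE. Averaged over the genotypes, 6 of the 8 were higher in enriched mice at an edgeR unadjusted p under 0.05 (median log2 fold change 2.30). Of all genes tested, 9.77% were. In kinase-dead mice 8 of 8 were (median 3.85, 5.64% of all genes), and in the wild type 0 of 8 (median 0.46, 3.95% of all genes). All 5 red blood cell genes were higher at that level in each genotype and averaged (averaged median 1.46). None of these genes of either list passed the adjustment. Summed red blood cell genes were 392.5, 285.4 and 240.8 CPM in WTEE samples 21 and 16 and KDEE sample 9, all low in Igkc. KDEE sample 22 (106.2 CPM) and WTEE sample 17 (56.2 CPM) were low in Igkc too. Of the 7 libraries high in Igkc, WTEE samples 10 and 13 and KDEE samples 12 and 14 had 246.2, 100.4, 241.7 and 139.2 CPM. The others, WTEE sample 11 and KDEE samples 15 and 20, had 57.8, 77.6 and 72.6 CPM. The relation of these sums to Igkc was not tested. The part of choroid plexus tissue in the Igkc values was not tested.

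Igha, the alpha heavy chain of IgA (chr12:113254830-113260236, minus strand), was counted in few reads. WTSH samples 2, 5, 19 and 23 had 0, 9, 4 and 1 reads, and KDSH samples 1, 3, 8, 18 and 24 had 7, 1, 17, 1 and 2. WTEE normalized counts ran from 1.1 to 62.73 with a median of 6.37, and KDEE from 0.954 to 24.70 with a median of 13.50. WTEE sample 13 alone lay above the WTSH libraries, and KDEE samples 12 and 15 alone lay above the KDSH libraries. The averaged log2 fold change was 1.58 (SE 0.71, unadjusted p = 0.0369, adjusted p = 0.25). It was 0.80 (unadjusted p = 0.191) without WTEE sample 13, and 0.51 (unadjusted p = 0.468) without the 5 libraries rich in choroid plexus genes.

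Ighg2b, a heavy chain of IgG (chr12:113302965-113307933, minus strand), had the largest estimated housing difference of the 8 genes tested, on the fewest reads. It had 1, 0, 2 and 1 reads in WTSH samples 2, 5, 19 and 23 and between 0 and 43 in WTEE libraries, where sample 10 had 41.41 normalized counts, sample 13 had 24.28 and sample 21 had none. KDSH libraries held 0 to 4 reads and KDEE libraries 0 to 10. Of 6 WTEE libraries, 4 lay above the highest WTSH library, and 3 of 6 KDEE libraries lay above the highest KDSH library. The log2 fold change was 3.71 in the wild type (SE 1.08, unadjusted p = 0.0025, adjusted p = 0.651), 1.27 in kinase-dead mice (SE 1.04, adjusted p = 0.599) and 2.49 averaged (SE 0.76, unadjusted p = 0.00371, adjusted p = 0.196). The 2 genotypes' changes differed by 2.44 (SE 1.68, adjusted p = 1). WTEE libraries lay 1.52 above KDEE libraries on the log2 scale (SE 0.72, unadjusted p = 0.048, adjusted p = 0.957). Ighg2b no longer passed the count filter in the fit without the choroid-rich libraries or in that on all 24, so it has no edgeR value there.

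Ighg2b has a close copy on the same chromosome, Ighg2c, and reads aligning to both were not counted. Over the 291 bases of their first exon the identity was 87.6%. The first 150 bases of Ighg2b (chr12:113307784-113307933) and Ighg2c (chr12:113288783-113288932), both on the minus strand, are shown with the 15 differing bases in capitals, since only reads that span such bases tell them apart.
Ighg2b: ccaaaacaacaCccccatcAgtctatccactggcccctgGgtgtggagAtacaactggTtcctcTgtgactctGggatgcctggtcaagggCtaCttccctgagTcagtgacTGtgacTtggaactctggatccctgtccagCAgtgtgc
Ighg2c: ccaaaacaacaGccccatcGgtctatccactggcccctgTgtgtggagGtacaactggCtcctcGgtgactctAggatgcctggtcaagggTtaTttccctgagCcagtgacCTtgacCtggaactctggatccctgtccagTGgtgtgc

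Ighg2c, which is none of the 9, was the more abundant of the pair, at 40.86 ± 17.33 normalized counts in WTSH, 42.79 ± 17.96 in WTEE, 35.26 ± 9.145 in KDSH and 57.52 ± 10.55 in KDEE. Its log2 fold change was 0.07 in the wild type (adjusted p = 0.941) and 0.71 in kinase-dead mice (unadjusted p = 0.0248, adjusted p = 0.396). Reads that aligned to both copies are missing from both counts, and the gene totals do not show how many there were.

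Jchain, the joining chain of secreted IgM and IgA (chr5:88519809-88527891, minus strand), overlapped across all 4 groups. It measured 28.65, 29.79, 17.19 and 28.04 normalized counts in WTSH samples 2, 5, 19 and 23, and 20.91 to 35.63 with a median of 28.27 in WTEE mice. KDSH samples 1, 3, 8, 18 and 24 had 22.98, 24.42, 27.15, 30.46 and 43.45, and KDEE mice 20.98 to 47.05 with a median of 27.28. The averaged log2 fold change was 0.09 (95% interval -0.26 to 0.43, adjusted p = 0.777). Among the 7 enriched libraries high in Igkc, Jchain ranged from 20.91 in WTEE sample 13, the lowest of its group, to 35.63 in WTEE sample 10 and 47.05 in KDEE sample 12, each the highest of its group.

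Cd79a and Cd79b, the paired signalling chains of the B cell receptor (chr7:24897381-24902197, plus strand, and chr11:106311341-106314762, minus strand), were counted in 5 to 47 and 5 to 25 reads per kept library. Cd79a measured 12.74, 13.90, 10.85 and 12.02 normalized counts in the WTSH libraries and 6.84 to 45.26 with a median of 9.43 in the WTEE libraries. Only WTEE sample 10 stood above the WTSH range, and 5 of the 6 WTEE values were below 12. In KDSH libraries Cd79a measured 16.09, 12.79, 10.44, 6.664 and 18.79 in samples 1, 3, 8, 18 and 24, and KDEE libraries ran from 8.62 to 17.64. The averaged log2 fold change of 0.20 (95% interval -0.45 to 0.85, adjusted p = 0.722) turned to -0.15 without WTEE sample 10 and to -0.31 without the choroid-rich libraries.

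Cd79b measured 7.429, 4.966, 15.38 and 7.010 normalized counts in WTSH samples 2, 5, 19 and 23, and 6.601 to 21.39 with a median of 14.38 in WTEE libraries. KDSH samples 1, 3, 8, 18 and 24 had 16.09, 11.63, 15.66, 16.18 and 10.57, and KDEE libraries ran from 10.49 to 22.66. WTSH samples 2, 5 and 23 and WTEE sample 21 were the low ones, and all 4 groups overlapped. The log2 fold change was 0.70 in the wild type (SE 0.33, unadjusted p = 0.0488, adjusted p = 0.651), 0.13 in kinase-dead mice (SE 0.30, adjusted p = 0.864) and 0.41 averaged (SE 0.22, adjusted p = 0.304). Between genotypes in standard housing it was 0.67 higher in KDSH than in WTSH mice (SE 0.35, unadjusted p = 0.0692, adjusted p = 1).

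Ms4a1, the B cell surface protein CD20 (chr19:11249675-11266241, minus strand), had 0 to 7 reads in each kept library and did not pass the count filter. It had 1, 1, 3 and 1 reads in WTSH libraries and 2, 1, 1, 7 and 2 in KDSH libraries, and the summed counts were 12 over 6 WTEE and 15 over 6 KDEE libraries. No difference in CD20 transcripts was detectable at this depth. Igkc lies inside the span of the non-coding gene Gm30211 and Ms4a1 inside that of 4930526L06Rik, in both cases with 0 exon bases shared. Reads of overlapping genes could not be parted by strand, since counting was unstranded.

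**Figure D3:**
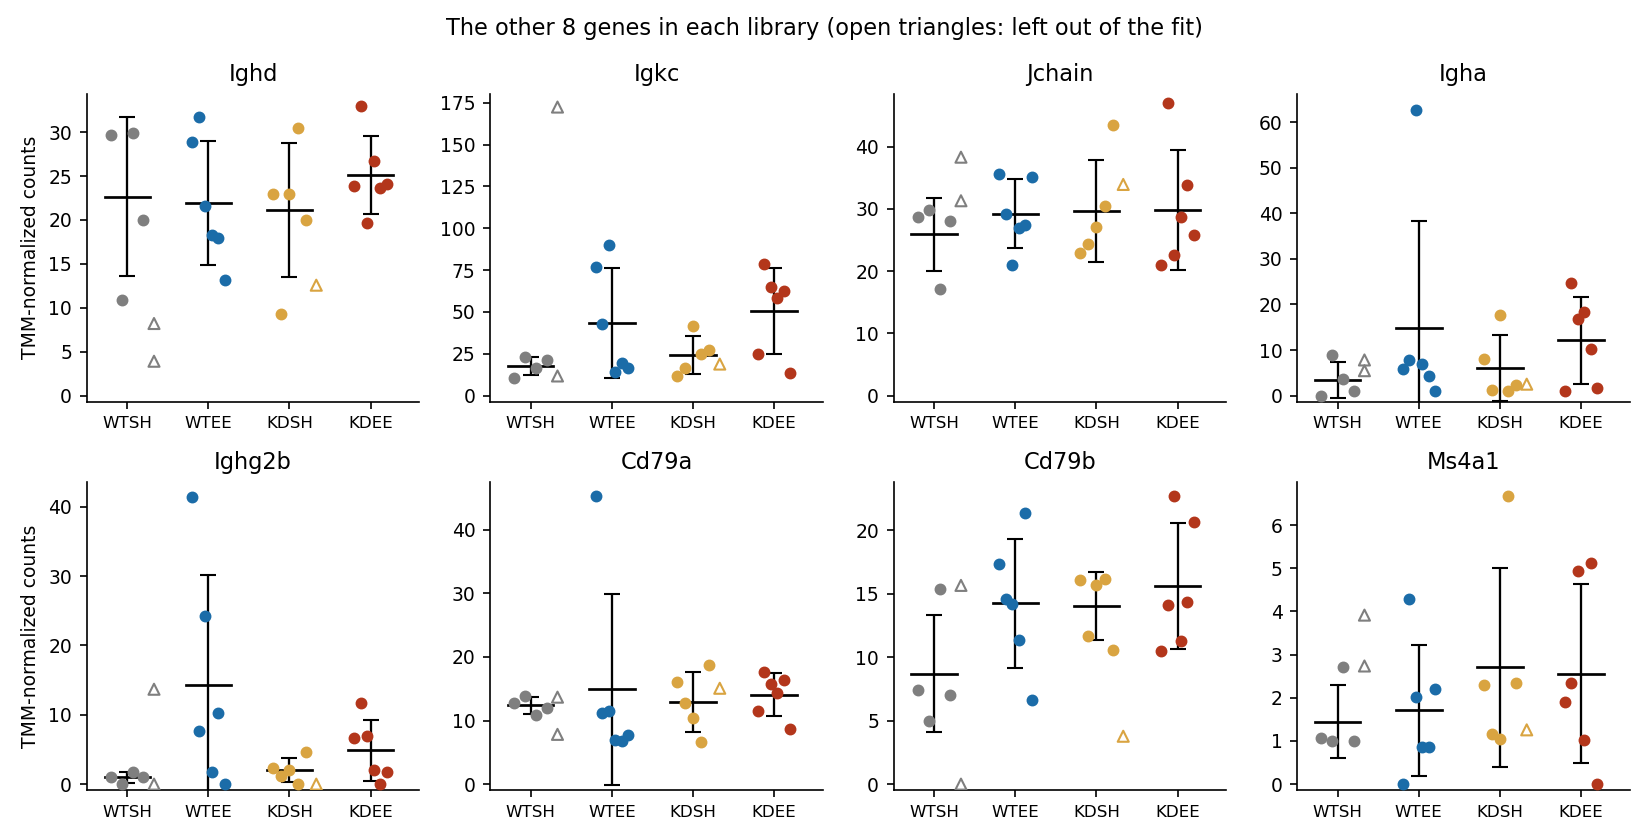
TMM-normalized counts of the other 8 genes by group, each panel with its own axis, with a point per kept library, a line at the mean, bars of 1 SD (not drawn below 0) and open triangles for left-out libraries, scaled together with all 24. Igkc, Igha and Ighg2b are high in part of the enriched libraries, up to 89.71, 62.73 and 41.41 normalized counts, while Ighd, Jchain and Cd79b overlap throughout, and a left-out WTSH library has 172.4 for Igkc.

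Over all, 8 of the 9 genes passed the count filter, which looks at all 4 groups together. At an adjusted p under 0.05 and a log2 change over 0.38, edgeR called 1 gene of 20187 (0.00495%) for housing averaged over the genotypes. That gene was Ighm, by which the set was chosen. The count was 0 without WTSH sample 5 or WTSH sample 19, 2 without KDSH sample 18 or KDEE sample 20, and 6 without WTEE sample 21. None of the other 7 was called in that or in any other contrast. In the wild type 0% of genes were called (6.55% had an unadjusted p under 0.05), and in kinase-dead mice 0% (11.6%). DESeq2 called 2 (0.00529%), 14 (0.0866%) and 41 (0.233%) genes in the wild-type, kinase-dead and averaged housing contrasts, of which Ighm was the only one of the 9, although it gave no adjusted p for Igha, Ighg2b, Cd79a, Cd79b and Ms4a1 in the averaged contrast, or for these 5, Ighd and Jchain in kinase-dead mice, so those could not be called there. For the averaged contrast, Igkc, Igha and Ighg2b of the other 7 had an unadjusted p under 0.05 and were higher in enriched mice, where 9.77% of all genes tested did so. In the wild type Igkc, Ighg2b and Cd79b did so (3.95% of all genes), and in kinase-dead mice Igkc (5.64%). All 7 averaged estimates lay above 0, against 51.9% of all genes tested. Only Ighm had no overlap between housing groups in the kept libraries. The genotype contrasts and the interaction called 0 genes (1%, 4.99% and 3.26% with an unadjusted p under 0.05, and with DESeq2 0, 118 and 20 calls, the last 2 being 0.438% and 0.0762%). Ighm and Ighg2b had an unadjusted p under 0.05 and were higher in WTEE than in KDEE (3.21% of all genes), and none of the 8 did so in KDSH against WTSH or the interaction.

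**Figure D4:**
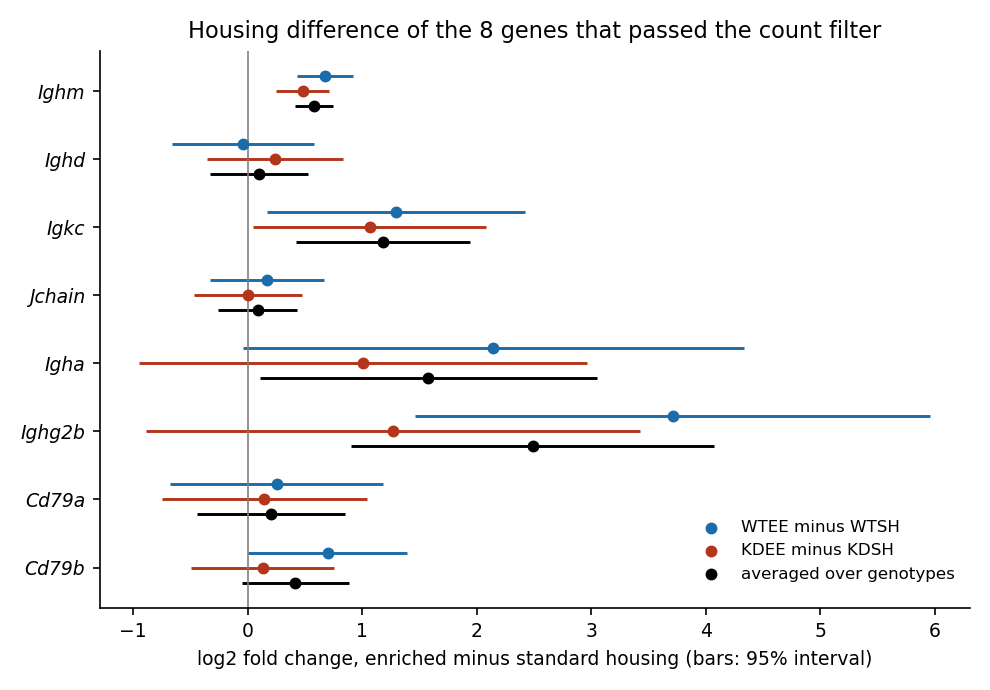
Log2 fold change from standard to enriched housing for the 8 genes tested, with 95% intervals, in wild-type mice, kinase-dead mice and averaged over the genotypes. Ighm, drawn as a description because it was chosen on these values, has the narrowest intervals. Igkc, Igha and Ighg2b have averaged intervals above 0 but wide, and the intervals of Ighd, Jchain and Cd79a include 0. For Cd79b the averaged interval includes 0, and the wild-type one starts at 0.0042.

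Genes of the same cells were examined as lists, which overlap the 9 and are no separate readout from them. The B cell list includes Cd79a and Cd79b. The plasma cell list includes Jchain, whose averaged change is the median of that list. Of 13 immunoglobulin constant genes, 6 passed the filter (5 of them among the 9), and of the 5 other than Ighm, Ighg2b, Igha and Igkc had an unadjusted p under 0.05 averaged over the genotypes, against 18.9% of all genes tested. Of 25 B cell genes, 17 passed, and their median averaged log2 fold change was 0.10 against 0.01 over all genes tested. In this list 4 genes had an unadjusted p under 0.05, all higher in enriched mice and none called, where 18.9% of all genes tested had such a p and 9.77% were higher with it. They were Cd22, an inhibitory receptor (0.44, adjusted p = 0.247), Vpreb3, a gene of B cell precursors (0.80, adjusted p = 0.207), Cxcr5, a chemokine receptor of follicles (0.73, adjusted p = 0.247), and Tnfrsf13b, the receptor TACI (0.28, adjusted p = 0.229). The 3 most abundant were Cd37, Blnk and Cd180, at averaged changes of 0.10, 0.10 and 0.09. Summed B cell genes ran from 23.1 to 26.8 CPM in WTSH, 24.7 to 29.3 in WTEE, 23.2 to 28.4 in KDSH and 27.1 to 30.5 in KDEE. Several of these genes, Blnk, Cd37 and Cd180 among them, are also made by microglia. Of 14 plasma cell genes, 13 passed and 0 had an unadjusted p under 0.05 averaged over the genotypes. The median was 0.09, with Xbp1 at -0.05, Txndc5 at 0.06 and Creld2 at -0.03. In the wild type Irf4, a factor that drives plasma cell fate, was 0.51 higher in enriched mice (unadjusted p = 0.0308, adjusted p = 0.651).

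Lists of other cells gave the surroundings of these values, to be read against the same shares of all genes tested (18.9%, of which 9.77% higher). Of 4 neutrophil genes tested, S100a8, S100a9 and Ngp had an unadjusted p under 0.05 and were higher in enriched mice (median of the 4, 1.36), and their summed level ran from 0.489 to 0.785 CPM in WTSH, 0.206 to 4.61 in WTEE, 0.391 to 1.74 in KDSH and 0.538 to 3.18 in KDEE. Summed red blood cell genes ran from 56.1 to 72.8 CPM in WTSH, 56.2 to 392.5 in WTEE, 37.0 to 77.5 in KDSH and 72.6 to 241.7 in KDEE. Of 6 T and NK cell genes tested, Trbc2 (1.16, adjusted p = 0.23) had an unadjusted p under 0.05, and of 8 microglia and macrophage genes Aif1 (0.29, adjusted p = 0.207) and C1qa (0.40, adjusted p = 0.2). Of 6 border macrophage genes Ms4a7 (0.60, adjusted p = 0.211) did so, as did 0 of 8 meningeal and fibroblast genes and 0 of 5 structural RNA genes tested, and 2 of 8 hippocampal neuron genes, Spink8 (0.24) and Fibcd1 (-0.22). Except for 1 neutrophil gene in WTSH, no blood or choroid plexus gene was at 0 in every library of a group. The part of blood, meninges or choroid plexus in the member values was not tested.

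Reads on V, D and J segments gave a further readout, since mature B cells and plasma cells carry such segments joined. Whether the reads came from joined segments was not examined. Of 380 segment symbols 170 had any read in the 21 kept libraries, 1037 reads in all, and 0 passed the count filter alone. The 3 most counted were the heavy chain joining segments Ighj1 and Ighj3 and 1 kappa V segment. That V segment took 38 of its reads from KDEE sample 20 and 11 from KDEE sample 12, and had none in 15 of the 21 libraries. Summed over all segments, WTSH samples 2, 5, 19 and 23 had 0.817, 0.558, 0.527 and 0.521 CPM, and WTEE libraries ran from 0.761 to 1.70 with a median of 0.948. KDSH samples 1, 3, 8, 18 and 24 had 1.03, 0.726, 0.674, 0.832 and 0.904 CPM, and KDEE libraries 0.913 to 2.28 with a median of 1.17. The groups overlapped in both genotypes, by WTSH sample 2 and by KDSH sample 1. Means were 0.606 ± 0.142 (SD) in WTSH and 1.08 ± 0.382 in WTEE, a difference of 0.475 CPM (2-sided exact permutation test, p = 0.0381, adjusted over the 2 comparisons 0.0476), and 0.833 ± 0.142 in KDSH and 1.401 ± 0.571 in KDEE, a difference of 0.568 CPM (exact p = 0.0476, adjusted 0.0476). The adjusted p rose to 0.114 in both without the 5 choroid-rich libraries, where the differences were 0.224 and 0.367 CPM. For each comparison it was above 0.05 in 12 of the 21 fits that left out 1 library. Since the adjustment joins the 2 comparisons, leaving out a mouse of 1 genotype could move the adjusted p of both. With all 24 libraries the wild-type difference was -0.365 CPM (exact p = 0.857), since the left-out WTSH sample 7 had 4.61 CPM. The kinase-dead difference was then 0.610 CPM (exact p = 0.013, adjusted 0.026).

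The numbers of reads of these parts differed widely. Light chain reads of Igkc were 1.02% to 7.57% of the Ighm reads in the same library, with a median of 2.20%, and per exon length 3.597% to 26.8% with a median of 7.80%. Reads of all V, D and J segments together were 1.995% to 8.17% of Ighm reads, with a median of 3.59%. The per-library median of the Igkc share was 1.91% in WTSH, 2.24% in WTEE, 2.20% in KDSH and 4.83% in KDEE.

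Whether the other genes rose and fell with Ighm from mouse to mouse was examined on log2 CPM after subtracting each group's mean, which removes the housing difference. Among 8 relations over 21 libraries, Pearson's r with Ighm was 0.11 for Ighd, -0.23 for Igkc, 0.28 for Jchain, 0.06 for Ighg2b, 0.05 for Cd79a, 0.12 for Cd79b and -0.26 for Ms4a1, and Spearman's rho ran from -0.36 to 0.27 over these 7. None of the 7 passed the adjustment (permutation test within groups, lowest adjusted p = 0.743 for r and 0.582 for rho). Igha was lower where Ighm was higher, with r = -0.60 (permutation p = 0.00531, adjusted 0.0425) and rho = -0.55 (permutation p = 0.0138, adjusted 0.111). Without the 2 libraries farthest from the median of Ighm, WTEE samples 13 and 17, r was -0.50. The adjusted p for r stayed under 0.05 in 6 of 21 fits without 1 library, and was 0.131 without the choroid-rich libraries, with r = -0.58.

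Relations to Igkc were examined in the same way. Igha rose with Igkc (r = 0.69, permutation p = 0.00164, adjusted over 7 relations 0.0115, and rho = 0.71, permutation p = 0.00124, adjusted 0.00868), and r was 0.70 without KDEE sample 22 and WTEE sample 16, the 2 farthest from the median of Igkc. It held in all 21 fits without 1 library, and without the 5 choroid-rich libraries r was 0.60 (permutation p = 0.0427, adjusted 0.299). Cd79a and Ighg2b had r = 0.56 (permutation adjusted p = 0.0607, rho = 0.52, adjusted 0.0878) and r = 0.53 (adjusted p = 0.14, rho = 0.47, adjusted 0.187), which did not pass. Without the choroid-rich libraries these were 0.34 and 0.02. For Ighd, Jchain, Cd79b and Ms4a1 r ran from 0.10 to 0.26 (permutation, lowest adjusted p = 0.409) and rho from 0.13 to 0.22 (lowest adjusted p = 0.529). Depth and choroid plexus content differed between the libraries of this set, and dissection may have too. The relations do not separate these.

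**Figure D5:**
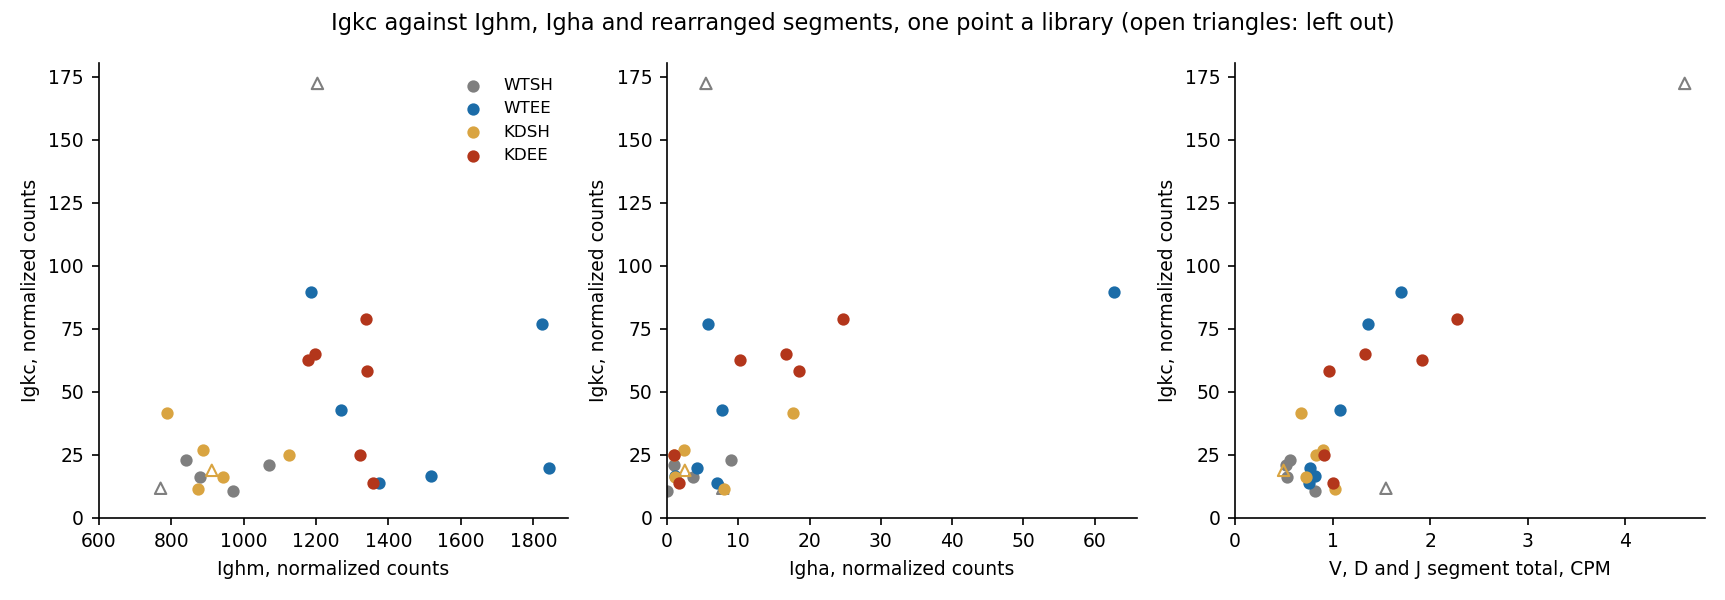
Igkc in normalized counts against Ighm (left), Igha (middle) and the summed V, D and J segments in CPM (right), 1 point per library, coloured by group with left-out libraries as open triangles. Enriched libraries with high Ighm lie both at high and at low Igkc, for example WTEE samples 10 and 17 at 1824 and 1843 for Ighm with 77.04 and 19.67 for Igkc, whereas the kept libraries highest in segments (2.28, 1.92 and 1.70 CPM) have 78.81, 62.55 and 89.71 for Igkc.

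The 3 libraries outside the fit were measured on the same genes, with size factors set over all 24. KDSH sample 6 had 912.3 normalized counts of Ighm, 18.85 of Igkc and 12.57 of Ighd, inside the range of the kept KDSH libraries. WTSH sample 4, with 15800187 counts on genes, had 771.0 for Ighm and 3.91 for Ighd, the latter from 1 read. WTSH sample 7 had 1204 for Ighm (95% exact Poisson interval 1094 to 1322, which covers counting error only) against at most 1039 in a kept WTSH library under the same scaling. Its Igkc was 172.4 (132.5 to 220.6) against at most 22.24, and its Ighg2b 13.68 (4.44 to 31.9, from 5 reads) against at most 1.77. Igkc reads were 14.3% of Ighm reads in that library, above the 7.57% that was highest among the kept ones. Its Ighd (8.21), Igha (5.47) and Cd79b (0 reads) were not above the kept WTSH libraries, and its summed neutrophil genes were at 10.8 CPM against at most 4.61 CPM in a kept library.

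The genes whose log2 CPM was most like that of Ighm over the 21 libraries, housing differences included, were not B cell genes. They were Syndig1, a synapse protein (r = 0.86), Asb11 (0.84), Fbxo7 (0.81), Cd14, a myeloid co-receptor (0.81), and Bok (0.81). Syndig1 averaged 935.1 ± 96.5 normalized counts in WTSH, 1199 ± 119.6 in WTEE, 944.3 ± 76.2 in KDSH and 1019 ± 70.5 in KDEE. For Igkc the 5 most alike were Ngp, a neutrophil granule gene (r = 0.86), Gm45531 (0.82), Wdr38 (0.76), Tmem106c (0.76) and Gins1 (0.74). Ngp averaged 2.76 ± 2.73 in WTSH, 9.86 ± 14.01 in WTEE, 5.61 ± 5.63 in KDSH and 10.6 ± 7.62 in KDEE. These correlations are a description of 21 libraries that share housing groups, with no test.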

How the data were processed

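The 9 genes, the gene lists and the tests were chosen with earlier results of these data known. Per the labels and the study's methods, the authors checked reads with FastQC 0.11.3, trimmed them with Skewer, used STAR 2.5 for alignment (build GRCm38) and HTSeq 0.6.1p1 for unstranded counting of unique alignments per gene. The deposited values are these raw counts, 1 table per library. Lines that name no gene (13.1% to 21.3% of counts in kept libraries, 25.8% to 50.2% in those left out) stayed out of library sizes and tests. Libraries were grouped by their labels, and 3 libraries were left out after the study's own quality decision.

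All genes were tested in edgeR 4.0.16 by its quasi-likelihood F-test (TMM, filterByExpr, all 4 groups in 1 model, no covariate), with Benjamini-Hochberg adjustment over 20187 genes. A gene was called when the adjusted p was under 0.05 and its log2 change exceeded 0.38 in either direction. DESeq2 1.42.0 was an alternative. Normalized counts were scaled to the mean effective library size, and CPM per kilobase used exon lengths of GENCODE M21, in which 95.1% of the symbols and all 9 genes had a single match. Relations used log2 CPM (prior count 2), group means subtracted, and 100000 permutations within groups, of which 20000 were drawn where libraries were left out. The V, D and J totals used an exact permutation test. Named genes were the 9, list genes with an unadjusted p under 0.05 or of highest mean count, the 3 most counted segments and Rps6ka5. Also named were the 5 genes outside the 9 that were most like Ighm or Igkc. The code was tested on simulated data.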

Additional observations from a re-analysis of the deposited data

Results flagged for a closer look

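Of 40 sets of kept libraries examined (9 genes and the V, D and J total in 4 groups), 6 held a library whose gap to its neighbour took an unusual share of the group's range. The cut-off flags about 1 in 20 sets of normally distributed values. Several of these genes had few and uneven reads, so the 6 cannot be read against that rate. Jchain in WTSH sample 19 was at 17.19 normalized counts, below the next at 28.04. Igha in WTEE sample 13 was at 62.73, above the next at 7.72, and Cd79a in WTEE sample 10 was at 45.26, above the next at 11.47. All 3 of these libraries are among the 5 rich in choroid plexus genes. Ms4a1 was at 6.66 in KDSH sample 18 (next 2.35) and at 2.71 in WTSH sample 19 (next 1.06), from 7 and 3 reads. The V, D and J total of WTSH sample 2 was 0.817 CPM, above the next at 0.558.

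Of the 3 libraries left out of the comparisons, 2 had values whose exact Poisson interval lay above the highest kept value of their group. That interval covers counting error of the left-out library only. Counting error of the kept library was not included, so a difference beyond the counting error of both was not tested. The highest kept Ighg2b value, in WTSH sample 19, rested on 2 reads. WTSH sample 7 had 1204 normalized counts of Ighm (highest kept 1039), 172.4 of Igkc (highest kept 22.24), 13.68 of Ighg2b (highest kept 1.77) and a V, D and J total of 4.61 CPM (highest kept 0.817). The total rested on 81 reads in 21 segments, 24 of them from 1 kappa V segment. WTSH sample 4 had a V, D and J total of 1.55 CPM from 19 reads in 16 segments. These 2 libraries also had 49.2% (sample 4) and 50.2% (sample 7) of their counts on lines naming no gene, whose part in these values was not tested.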

How the results depend on the processing

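No paired analysis was possible because the mouse numbers in the labels never recur across groups. Counts of called genes depended on the test and on the libraries. DESeq2 called 2, 14, 41, 118 and 20 genes in WTEE vs WTSH, KDEE vs KDSH, the averaged housing contrast, WTEE vs KDEE and the interaction, where edgeR called 0, 0, 1, 0 and 0. DESeq2 on all 24 libraries, added after seeing the data, called 6, 22 and 233 in the 3 housing contrasts, 1 in KDSH vs WTSH, 0 in WTEE vs KDEE and 2 in the interaction. With all 24 libraries edgeR called 1 gene in WTEE vs WTSH and 15 averaged, and with only the 2 groups compared it called 1 in KDEE vs KDSH. Leaving out 1 library at a time gave 0 to 1 calls in WTEE vs WTSH and 0 to 6 averaged.

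Estimates near 0 changed sign. For Ighd in WTEE vs WTSH the log2 fold change was 0.21 with all 24 libraries (0.20 with DESeq2 on all 24) 0.0266 without the choroid-rich libraries and 0.026 without WTSH sample 2 and WTEE sample 10. Jchain in KDEE vs KDSH was -0.0285 with all 24 libraries (-0.0315 with DESeq2), -0.0005 with only its 2 groups and -0.11 without the choroid-rich libraries, where its averaged value was -0.0394. Cd79a was -0.65 in WTEE vs WTSH and -0.31 averaged without the choroid-rich libraries, and -0.45 and -0.15 without WTSH sample 2 and WTEE sample 10. Cd79b in KDEE vs KDSH was -0.0381 without the choroid-rich libraries. With 1 library left out, ranges that crossed 0 were -0.27 to 0.13 for Ighd in WTEE vs WTSH and -0.0127 to 0.19 averaged, -0.17 to 0.18 for Jchain in KDEE vs KDSH and -0.0004 to 0.17 averaged, -0.46 to 0.41, -0.0281 to 0.32 and -0.15 to 0.28 for Cd79a in WTEE vs WTSH, KDEE vs KDSH and averaged, -0.0208 to 0.23 for Cd79b in KDEE vs KDSH, and -0.11 to 0.0401 for Ighm in KDSH vs WTSH. In 4 of the 21 such fits Ighg2b did not pass the filter.

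Relations to Ighm changed as follows. With all 24 libraries r was 0.17 for Igkc, -0.32 for Cd79b and -0.51 for Igha (adjusted p = 0.123), and with a prior count of 0.5 it was -0.59 for Igha (adjusted p = 0.0514). Without the choroid-rich libraries r was -0.082 for Jchain, -0.57 for Cd79a and -0.58 for Igha. With 1 library left out r ran from -0.65 to -0.48 for Igha, -0.038 to 0.23 for Ighd, -0.19 to 0.24 for Ighg2b, -0.55 to 0.23 for Cd79a, -0.048 to 0.22 for Cd79b and -0.56 to -0.13 for Ms4a1. Relations to Igkc with all 24 libraries were 0.66 for Ighg2b and 0.49 for Cd79a (permutation adjusted p = 0.0165 and 0.0173). For Cd79b r was -0.41 there (permutation adjusted p = 0.189). Without the choroid-rich libraries r was 0.60 for Igha and -0.10 for Cd79b. With 1 library left out, r with Igkc ran from 0.50 to 0.63 for Cd79a and -0.062 to 0.26 for Cd79b. The permutation adjusted p for Cd79a was under 0.05 in 4 of these 21 fits. The V, D and J difference in WTEE vs WTSH was -0.37 CPM with all 24 libraries and 0.22 CPM without the choroid-rich ones. That in KDEE vs KDSH was 0.61 CPM with all 24 libraries and 0.37 CPM without the choroid-rich ones. With 1 library left out the 2 differences ran from 0.35 to 0.55 CPM and from 0.39 to 0.67 CPM. The cause of these changes was not tested. Depth limits Ms4a1, Igha and Ighg2b, which had under 10 reads in most libraries.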
